A study of Sus scrofa with 12 samples.

Results

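Skeletal muscle of pigs sampled at days 7, 14 and 21 after birth was set against skeletal muscle of newborn pigs sampled on the day of birth (day 0), to find the genes that separate newborn muscle from every later sample. The comparison uses all 12 arrays of the series, 9 later ones (3 biological replicates at each of 3 ages) and 3 newborn ones, and its members were chosen by the age in their labels. Every sample is total RNA from untreated muscle tissue that had been kept frozen in liquid nitrogen, labelled with biotin and hybridized to an Affymetrix porcine array. Several short probes together, called a probe set, read one transcript on such an array, and its signal is a brightness with no fixed unit. The labels name no muscle, breed or sex and do not say whether replicates came from 1 litter. The p-values measure the spread between these samples, and those of single genes take it as equal in newborn and later arrays. Whether the newborn arrays were hybridized on the same occasion as the others is not given in the sources used here.

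Muscle changes its work at birth. The pig fetus lives on glucose from the placenta in a warm surrounding, whereas the newborn pig lives on fat-rich milk, must stand and shiver for warmth, and meets microbes from the first day. In the weeks after birth fibres replace developmental forms of the contractile proteins by adult ones, lay down enzymes for glycogen and glucose use, and grow by adding protein and by fusing with dividing satellite cells, the stem cells of muscle.

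The tissue had the markers of its label. The summed signal of 9 skeletal muscle markers ran from 278273 to 367195 in later arrays, against 240305 to 308902 in newborn ones, and 3 of the markers were higher and 2 lower by the test described next. Of other cells, 12 endothelial markers summed to 19487 to 26565 in later arrays and 15387 to 16803 in newborn ones, 8 fibroblast markers to 20571 to 47129 and 23045 to 39738, and 5 erythroid markers to 1294 to 2809 and 1666 to 2879. Of 12 lymphocyte and 5 neutrophil markers 10 and 4 were below the filter on low signals.

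Several measures of the arrays themselves differed with age as well. The first principal component, with 30.9% of the variance, placed the later arrays between 10.9 and 25.2 and the newborn ones at -62.6, -62.7 and -35.0, so that newborn replicate 3 lay nearest to the later arrays. The hybridization controls, spiked into each sample, averaged 12.55 ± 0.13 on the log2 scale in later arrays (SD, n = 9) and 12.20 ± 0.09 in newborn ones (SD, n = 3; exact two-sided permutation p = 0.00455, adjusted 0.0121 over 8 measures, the smallest p this design allows before adjustment). Probe sets for 28S ribosomal RNA averaged 12.48 in later arrays and 11.50 in newborn ones, with the same p. The log2 ratio of 3' to 5' signal in the poly-A spikes, a measure of how complete the labelling was, was 0.51 ± 0.10 in later arrays and 0.98 ± 0.53 in newborn ones (exact permutation p = 0.00909, adjusted 0.0182). Newborn replicate 2 stood at 1.59, and without it the difference shrank to -0.17 (adjusted p = 0.1455). Without newborn replicate 1 none of these measures passed (adjusted p = 0.0727 for each), while the hybridization controls and 28S RNA passed without replicate 2 or 3 (adjusted p = 0.0364).

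**Figure D1:**
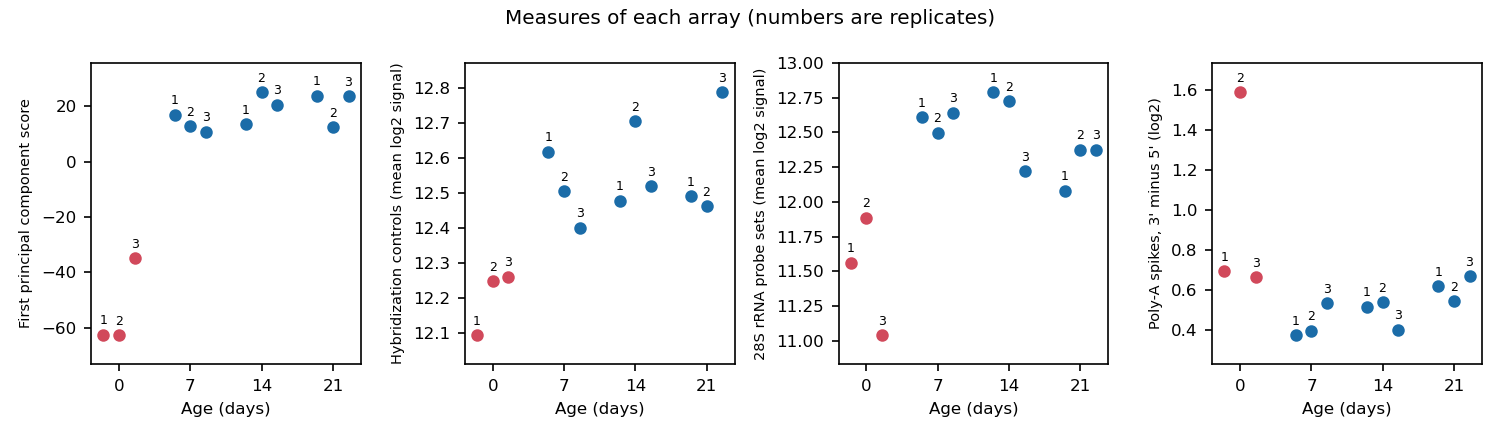
Each panel plots 1 measure of the 12 arrays against age in days, in red at day 0 and in blue at days 7, 14 and 21, with replicates of an age drawn side by side and numbered. The newborn arrays lie apart from all 9 later arrays on the first principal component, the hybridization controls and 28S RNA, while the poly-A ratio stands out in newborn replicate 2 (1.59).

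A gene is called here when its log2 signal differed between the 9 later and the 3 newborn arrays in limma at a Benjamini-Hochberg adjusted p of 0.05 over all 14399 probe sets tested. It is separated when all 9 later values lie on one side of all 3 newborn values, and the distance between the nearest later and newborn arrays is its gap. Differences are later minus newborn on the log2 scale, given ± SE. Of 5296 genes, 615 were called higher in later muscle (11.6%) and 695 lower (13.1%). Separated were 424 genes on the higher side (8.01%) and 523 on the lower (9.88%). Both called and separated were 385 genes on the higher side (7.27%) and 477 on the lower (9.01%), 862 in all (16.3%). In 30 of the 385 and 1 of the 477 the mean of the dimmer group was under the filter limit, so that the gene passed the filter only through the other group. Where such a gene is described below, its difference is given without a test, but it stays in the counts of called genes. The median difference over all genes was -0.03, and 2502 of the 5296 were higher in later muscle. A gap of at least 2-fold was rarer, in 15 genes higher in later muscle (0.283%) and 5 lower (0.0944%). The larger share on the higher side depends on the scale: with the arrays scaled on the hybridization controls the counts were 6 higher and 18 lower, and 7 of the 15 higher genes had a newborn mean under 90.3, the mean signal below which probe sets were left out. The nearest newborn array to the later ones was replicate 3 in 195 of the 385 higher genes and in 255 of the 477 lower ones, so that array set the gap in more of them than either other newborn array.

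These directions are relative to an equal trimmed mean signal on every array. With the arrays scaled on the hybridization controls instead, the median of all probe sets shifted to -0.34 and the split of called probe sets went to 635 higher and 3831 lower, against 1631 (11.3%) and 1326 (9.21%) as reported. Separated probe sets numbered 1071 on the higher side (7.44%) and 1029 on the lower (7.15%). On the control scale 212 of the 385 higher genes and 477 of the 477 lower ones were still called. Without newborn replicate 2 the count of called probe sets was 1899, against 2957 (20.5%) with all arrays, and 318 of the 385 and 339 of the 477 genes were still called. With the poly-A ratio as a covariate these were 227 and 226.

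**Figure D2:**
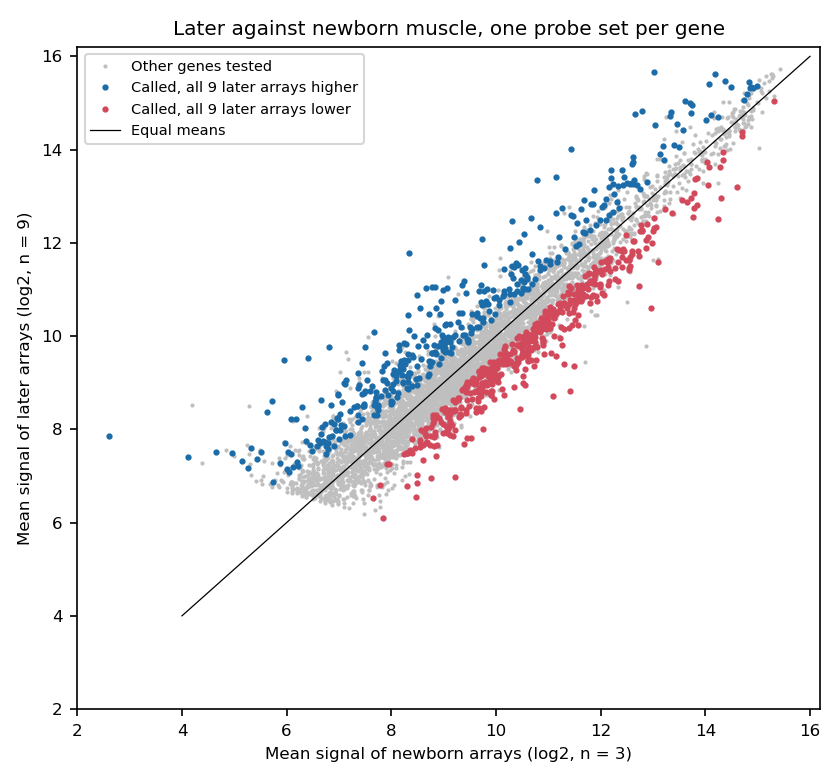
Each point is 1 of 5296 genes, at its mean log2 signal over the 3 newborn arrays (horizontal) and over the 9 later arrays (vertical). The 385 called and separated genes higher in later muscle are blue, the 477 lower ones are red, and the line marks equal means; the points farthest from the line are mostly blue.

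The genes with the widest gaps were the following. ANKRD37, an ankyrin repeat protein known as a target of the hypoxia response in human cells, had signals from 93.1 to 472.6 in later muscle (median 242), against 12.3, 3.4 and 5.5 in newborn muscle. It was at the dim end of the array in all 3 newborn samples, and the lowest later array was little above the filter limit. Its difference was 2.86 after 29.7 was added to all signals as an offset, which damps changes from dim values, and 5.25 without it. SMAGP, a small transmembrane protein found at contacts between cells, ran from 115.7 to 255.6 in later muscle, against 17.2, 15.3 and 19.4 in newborn muscle (2.1 with the offset and 3.31 without it). TMEM132A, another membrane protein, ran from 115.6 to 274.6 in later muscle (median 176.6), against 24.0, 34.7 and 35.6. The open reading frame C4H1orf54 ran from 364.4 to 1104 (median 941.7), against 58.3, 114.5 and 93.5. These 4 genes lead the list and had newborn means under that limit, as had CCL5, MSTN and ANGPT1. Their size therefore depends on the dim end of the scale. All 30 genes at the ends of the ranking stayed separated with median centring, with quantile normalization and with the hybridization controls. They were chosen for wide gaps, and the offset keeps the order of the arrays, so it cannot change a separation. Whether the separation of the dim genes depends on the dim end was not tested.

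**Figure D3:**
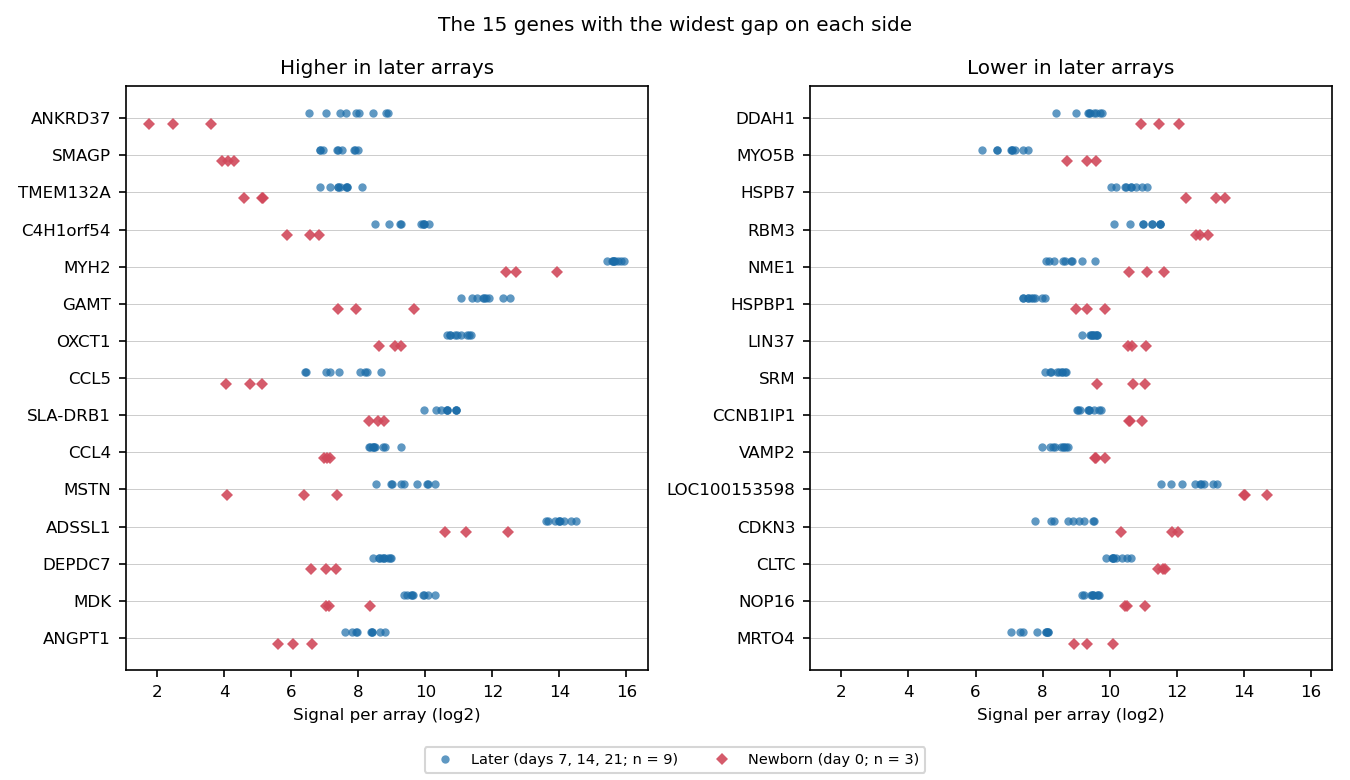
Log2 signals of single arrays are shown for the 15 genes with the widest gap on each side, with the 9 later arrays as blue circles and the 3 newborn arrays as red diamonds. In no gene do the circles and diamonds overlap, and in MYH2, GAMT, MSTN and CDKN3 1 newborn array lies nearer to the later ones than the other two.

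MYH2 had the widest gap among contractile genes. Its product is the thick filament motor protein of fast oxidative (IIa) fibres. Its signal ran from 43922 to 62403 in later muscle (median 50462), against 5403, 6748 and 15661 in newborn muscle. The lowest later array was 2.81-fold above the highest newborn one, which was replicate 3. The difference was 2.65 ± 0.22, a 6.26-fold higher level in later muscle (limma adjusted p = 1.41e-05), and it stood at 2.54, 2.66 and 2.74 at days 7, 14 and 21. Myosin heavy chains are close relatives, and the probe set may read more than 1 of them.

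The other fast fibre genes had smaller differences. They lay near the top of the scale in both groups, as with MYL1, a fast myosin light chain, at a mean log2 signal of 15.72 in later muscle and 15.43 in newborn muscle, where the highest later mean of any probe set was 15.91. The part of a ceiling on bright signals in these differences was not tested. Of 8 tested, 3 were called higher and 0 lower, and their median was 0.32 on the main scale but -0.04 on the hybridization control scale. TNNT3, the fast troponin T, ran from 43235 to 60154 in later muscle, against 33205, 33593 and 43905 in newborn muscle (0.42 ± 0.11, limma adjusted p = 0.0157). MYOZ1, a Z-disc protein, was at 0.47 ± 0.12 (adjusted p = 0.0136). In both, newborn replicate 3 reached into the later range. Without newborn replicate 1 or 2 MYH2 alone was called among the 8, and without replicate 3 6 were. MYH2 was also the 1 call with the poly-A covariate and on the hybridization control scale.

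Of 9 slow fibre genes 5 were called higher and 1 lower, with a median of 0.62. TNNT1, the slow troponin T, ran from 18984 to 40150 in later muscle (median 28763), against 11080, 14187 and 15788 in newborn muscle (1.07 ± 0.23, limma adjusted p = 0.0047). MYL2, a slow myosin light chain, ran from 31053 to 50984, against 20785, 19154 and 30872 (0.86 ± 0.16, adjusted p = 0.00222), and its nearest arrays almost touched. MYH7, the slow myosin heavy chain, was at 0.58 ± 0.17 (adjusted p = 0.0283) with overlapping groups. The other called members were TNNC1 (0.76 ± 0.24) and ATP2A2 (0.63 ± 0.20), the slow troponin C and the slow calcium pump. The call on MYH7 was lost without newborn replicate 1 (0.44, adjusted p = 0.143) or 2 (0.49, 0.13), and the list then held 2 or 3 calls, as it did with the poly-A covariate (2) and on the hybridization control scale (3). CASQ2, the cardiac and slow fibre calsequestrin that stores calcium in the sarcoplasmic reticulum, was the 1 lower member, with 476 to 2046 in later muscle (median 1116) against 4377, 1661 and 4793 in newborn muscle (-1.45 ± 0.37, adjusted p = 0.012). It lost its call without newborn replicate 1 (-1.24, adjusted p = 0.0662) or 3 (-1.18, 0.0631).

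Genes of calcium release were higher as well. Excitation-contraction coupling is the release of calcium that links the nerve signal to contraction. Of 6 such genes tested, 5 were called higher and 0 lower, with a median of 0.91. CAMK2G, a calcium and calmodulin dependent kinase, ran from 2365 to 3702 in later muscle (median 2905), against 539.1, 1010 and 1213 in newborn muscle (1.76 ± 0.20, limma adjusted p = 7.87e-05). CALM2, which encodes calmodulin, ran from 6776 to 8890, against 2821, 2906 and 4286 (1.24 ± 0.13, adjusted p = 6.34e-05). CACNA2D1, a subunit of the calcium channel of the fibre surface, was at 1.36 ± 0.20, and SLN, sarcolipin, which regulates the calcium pump, at 0.47 ± 0.10. All 4 were separated, and RYR1, the release channel itself, was called (0.59 ± 0.19). The list held 3 calls with the poly-A covariate and 3 on the hybridization control scale.

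Of 13 genes listed for immature muscle 5 were not on the array or had no symbol. No embryonic or neonatal myosin heavy chain was among the 8 tested. These 8 did not move as 1 group, with 2 called higher and 3 lower. DES is also among the skeletal muscle markers above, and ACTA2 among those of smooth muscle. ANKRD1, a stress-responsive titin-binding protein, had 43.5 to 2944 in later muscle (median 978.3), against 17838, 12937 and 1775 in newborn muscle (-3.06 ± 1.0, limma adjusted p = 0.0409). Newborn replicate 3 lay inside the later range, and the call was lost without newborn replicate 1 (-2.43, adjusted p = 0.177) or 2 (-2.66, 0.163), without day 7 replicate 1 (-3.0) and without day 21 replicate 1 (-3.08), 2 (-3.04) or 3 (-2.99). DES, desmin (-0.46 ± 0.11), and ACTC1, cardiac actin (-1.01 ± 0.33), were the other lower members, and ACTA2, smooth muscle actin (0.71 ± 0.20), and MYL4, the atrial light chain (0.74 ± 0.24), the higher ones. Without newborn replicate 2 none of the 8 was called, and MYL4 also lost its call without newborn replicate 1 (0.82) or 3 (0.79), day 14 replicate 1 or 2 (0.73 each) and day 21 replicate 2 (0.72) or 3 (0.68). TNNT2, cardiac troponin T, ranged from 89.4 to 1088 in later muscle, against 91.0, 105.2 and 170.2 in newborn muscle, and did not pass (1.36 ± 0.57, adjusted p = 0.106).

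Energy metabolism held some of the widest separations. The list for glycolysis, the breakdown of glucose to lactate, had 9 of 12 tested genes called higher, 0 lower, and 8 separated. It includes FBP2, the muscle fructose bisphosphatase, which acts in the opposite direction, towards glucose and glycogen, and had the largest difference of the list (2.27 ± 0.38, limma adjusted p = 0.00104). The median was 1.16, and the 9 later arrays did not overlap with the newborn ones in the list's mean. This was not particular to glycolysis, and held as well for the fast fibre, glycogen, proteasome, translation factor and endothelial lists, among others. GPI, glucose phosphate isomerase, ran from 22868 to 38516 in later muscle (median 27239), against 4320, 6268 and 13029 in newborn muscle (2.03 ± 0.24, limma adjusted p = 9.05e-05). PGAM2, the muscle phosphoglycerate mutase, ran from 38694 to 54909, against 21288, 16910 and 26349 (1.09 ± 0.14, adjusted p = 0.000161). TPI1, triose phosphate isomerase, was at 1.43 ± 0.19, and LDHA, the lactate dehydrogenase of fast muscle, at 1.42 ± 0.20. In each of them newborn replicate 3 was the newborn sample nearest to later muscle. On the hybridization control scale the list had 8 calls and a median of 0.81.

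Of 6 glycogen genes 4 were called higher and 0 lower, with a median of 0.93. PHKB, a subunit of the kinase that switches on glycogen breakdown, ran from 8349 to 14377 in later muscle (median 10499), against 4736, 4258 and 5043 in newborn muscle (1.21 ± 0.14, limma adjusted p = 0.000105). PYGM, the muscle glycogen phosphorylase, ran from 35998 to 51991, against 13060, 13930 and 28133 (1.34 ± 0.18, adjusted p = 0.000254). PGM1, phosphoglucomutase, was at 1.29 ± 0.19 and GYG1, the primer of glycogen synthesis, at 0.65 ± 0.14. GYS1, the muscle glycogen synthase, lay on the lower side without passing (-0.75 ± 0.26, limma adjusted p = 0.0549), and UGP2, which makes the activated glucose for it, was at 0.11 ± 0.15.

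Creatine and the shuttles that pass reducing power to mitochondria had 5 of 11 genes called higher and 0 lower. GAMT, which makes creatine in its last step, ran from 2133 to 5940 in later muscle (median 3425), against 245.4, 166.7 and 816.5 in newborn muscle (3.45 ± 0.37, 10.9-fold, limma adjusted p = 6.34e-05). GPD1, the cytosolic glycerol 3-phosphate dehydrogenase, ran from 7365 to 14675, against 1067, 1118 and 4640 (2.56 ± 0.34, adjusted p = 0.000205). GPD2, its mitochondrial partner, ran from 209.4 to 461.3, against 142.5, 75.7 and 112.1 (1.39 ± 0.25, adjusted p = 0.00174). Both enzymes of the glycerol phosphate shuttle were thus separated, whereas the malate-aspartate enzymes MDH1 (-0.23 ± 0.11), MDH2 (-0.00 ± 0.12), GOT1 (-0.01 ± 0.22) and GOT2 (-0.02 ± 0.11) were not called. The creatine kinases CKM (0.33 ± 0.11) and CKB (1.41 ± 0.47) completed the 5, and the list held 3 calls without newborn replicate 2. CKM turned to -0.018 on the hybridization control scale, and its call was lost without newborn replicate 1 (0.26) or 2 (0.27), day 7 replicate 1 (0.33), day 14 replicate 1 (0.34) or 2 (0.32) and day 21 replicate 2 (0.32).

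A pair of enzymes outside these lists had gaps over 2-fold. ADSSL1, the muscle adenylosuccinate synthase of the purine nucleotide cycle, ran from 12383 to 23236 in later muscle (median 16388), against 2376, 1547 and 5718 in newborn muscle (2.58 ± 0.28, limma adjusted p = 6.73e-05). OXCT1, the mitochondrial enzyme that lets tissues burn ketone bodies, ran from 1601 to 2654, against 547.1, 390.6 and 622.4 (2.0 ± 0.18, adjusted p = 2.76e-05). Both kept their calls in every alternative run, while their gaps were 0.90 and 0.92 on the log2 scale, under 2-fold, with hybridization control scaling.

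Fat oxidation and the citric acid cycle showed no such rise. Of 17 genes of fatty acid oxidation, 0 were called higher and 4 lower, with a median of -0.10. ACADVL, the first dehydrogenase for long-chain fats, ran from 6308 to 9200 in later muscle (median 7568), against 11065, 12162 and 15785 in newborn muscle (-0.78 ± 0.13, limma adjusted p = 0.00121). HADHA, a subunit of the trifunctional protein, ran from 3741 to 4724, against 4885, 7484 and 7103 (-0.61 ± 0.13, adjusted p = 0.00427). CPT1B, which lets fatty acids into muscle mitochondria (-0.61 ± 0.18, adjusted p = 0.0235), and ETFDH, which passes their electrons on (-0.39 ± 0.11, 0.0214), were also separated, with nearest arrays close together. CPT1B lost its call without newborn replicate 3 (-0.34, adjusted p = 0.1515) and ETFDH without replicate 2 (-0.32, 0.106). In the citric acid cycle IDH3B, a subunit of isocitrate dehydrogenase, was the 1 called gene of 16 (-0.86 ± 0.15, adjusted p = 0.00107). Its partner subunit IDH3A was at 0.40 ± 0.21 and did not pass (adjusted p = 0.186). On the hybridization control scale 7 genes of fatty acid oxidation and 5 of the citric acid cycle were called, and with the poly-A covariate 2 and 1. Over all 5296 genes 2042 were called on that scale and 562 with the covariate, so these counts are not particular to the 2 lists.

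Among regulators of muscle growth, MSTN stood out. Myostatin, its product, is the secreted inhibitor of muscle mass. MSTN had 373.2 to 1254 in later muscle (median 664.8), against 83.2, 17.0 and 165.9 in newborn muscle (2.89 with the offset and 3.54 without it). IGF1, which promotes growth, ran from 329.8 to 458.6, against 211, 125.5 and 214.2 (1.07 ± 0.19, adjusted p = 0.00156). Both the inhibitor and the growth factor were therefore separated in the same direction. IGFBP5, a binding protein of such factors (0.75 ± 0.17), and MEF2A, a transcription factor of muscle genes (0.62 ± 0.12), completed the 4 of 12 called, and both lost the call on the hybridization control scale (0.40 and 0.27). Of the 4, MSTN had a newborn mean under the filter limit and passed the filter only through the later arrays. IGF1 lost its call with the poly-A covariate (0.75, adjusted p = 0.0575). The myogenic factors MYF5 (-0.44 ± 0.35), MYF6 (-0.54 ± 0.38) and MYOD1 (0.40 ± 0.20) did not pass.

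Imprinted genes, read from 1 parental copy and active in fetal growth, had 0 of 8 called higher and 3 lower. MEG3, a long noncoding RNA, ran from 325.6 to 894.2 in later muscle (median 418), against 1130, 1736 and 1739 in newborn muscle (-1.61 ± 0.29, limma adjusted p = 0.0017). PEG10 ran from 343.4 to 1452, against 1854, 3174 and 1983 (-1.58 ± 0.37, adjusted p = 0.00805). It lost its call when its probe sets were averaged and with the poly-A covariate. PLAGL1, a zinc finger factor, was at -0.93 ± 0.27 with 1 newborn value inside the later range. Without newborn replicate 2 MEG3 alone was called. On the hybridization control scale 6 of the 8 were called, where 2042 of all 5296 genes were. IGF2, the fetal growth factor, had 11370 to 24748 in later muscle against 15045, 22291 and 21995 and did not pass (-0.34 ± 0.21, adjusted p = 0.274).

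Newborn muscle was marked by genes that build the machinery of protein synthesis. Of 23 genes of ribosome assembly 13 were called lower in later muscle and 1 higher, with a median of -0.71, and 22 of 23 lay below 0. NOP16, a nucleolar protein, ran from 576.7 to 821.8 in later muscle (median 721.6), against 2117, 1454 and 1404 in newborn muscle (-1.19 ± 0.16, limma adjusted p = 0.000209). FBL, fibrillarin, which methylates ribosomal RNA, ran from 1973 to 2825, against 4030, 3626 and 3638 (-0.66 ± 0.12, adjusted p = 0.00183). GPATCH4 ran from 182.3 to 324.5, against 1278, 475.3 and 659.3 (-1.71 ± 0.25), and NHP2, of the particles that modify ribosomal RNA, was at -0.86 ± 0.16. NHP2 lost its call when its probe sets were averaged and with the poly-A covariate. MRTO4, a factor of the large subunit that was in no list, ran from 134.6 to 286, against 1094, 646.4 and 487.2 (-1.64 ± 0.28). The 1 higher member was BUD23, whose probe sets were called in opposite directions.

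Polyamines, small charged molecules needed for growth, and nucleotides are made by enzymes of which 9 of 14 were called lower and 1 higher, with a median of -0.75. NME1, a nucleoside diphosphate kinase, ran from 276.3 to 751 in later muscle (median 405.6), against 3138, 2204 and 1517 in newborn muscle (-2.39 ± 0.28, a 5.22-fold lower level, limma adjusted p = 0.000103). SRM, spermidine synthase, ran from 271.1 to 412.3, against 1659, 2126 and 783.7 (-2.01 ± 0.24, adjusted p = 0.000101). ODC1, ornithine decarboxylase, the first step of the pathway, ran from 555.2 to 1098, against 3061, 1863 and 1676 (-1.42 ± 0.23, adjusted p = 0.000754). In these 3 genes the later arrays did not overlap with the newborn ones. OAZ1, the antizyme that inhibits ODC1, was the 1 higher member (0.67 ± 0.19). IMPDH2, which makes guanine nucleotides, was at -0.87 ± 0.14. With the poly-A covariate the list held 6 calls, against 10 as reported. Of 12 translation factors 3 were called lower and 0 higher, while 10 of the 12 were called on the hybridization control scale and 1 with the poly-A covariate. Over all 5296 genes these counts were 2042 and 562. EIF4G1, the scaffold of the cap-binding complex, was at -0.69 ± 0.14 (limma adjusted p = 0.00344). It lost its call when its probe sets were averaged and with the poly-A covariate.

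Protein folding and breakdown went the same way. Of 32 chaperone genes 20 were called lower in later muscle, 0 higher, and 31 lay below 0, with a median of -0.63. HSPB7, a small heat shock protein of heart and skeletal muscle, ran from 1051 to 2219 in later muscle (median 1592), against 11202, 9192 and 4977 in newborn muscle (-2.37 ± 0.24, 5.18-fold lower, limma adjusted p = 3.69e-05). CRYAB, alpha B crystallin, ran from 6427 to 12181, against 31178, 25975 and 18814 (-1.40 ± 0.19, adjusted p = 0.000265). The mitochondrial chaperones HSPA9 (-1.02 ± 0.10, adjusted p = 3.69e-05) and HSPD1 (-1.03 ± 0.13, 0.000185) had less spread, and HSPA9 ran from 6400 to 8198 against 16353, 15139 and 12632. HSPBP1, a co-chaperone in no list, was at -1.71 ± 0.20, with 169.3 to 267 against 928.6, 644.3 and 510.3. The count of called chaperones was 13 without newborn replicate 2 and 12 with the poly-A covariate.

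The proteasome degrades ubiquitin-tagged proteins, and 31 of its 31 tested genes lay below 0, with 22 called lower, 17 of them separated, and a median of -0.63. PSMD3, of the regulatory particle, ran from 1133 to 1548 in later muscle (median 1285), against 3782, 3189 and 2062 in newborn muscle (-1.16 ± 0.16, limma adjusted p = 0.000265). PSMB2, of the catalytic core, ran from 3594 to 4495, against 9056, 9956 and 5957 (-0.99 ± 0.14, adjusted p = 0.000285). PSMB7, another core subunit (-0.97 ± 0.14), and PSMD1, of the regulatory particle (-0.90 ± 0.12), were separated as well. The list held 12 calls with the poly-A covariate, and 16 without newborn replicate 1 or 2. The muscle ubiquitin ligase FBXO32 was higher without passing (1.0 ± 0.49, adjusted p = 0.162), with 700.4 to 4229 in later muscle against 901.1, 1292 and 346.3.

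**Figure D4:**
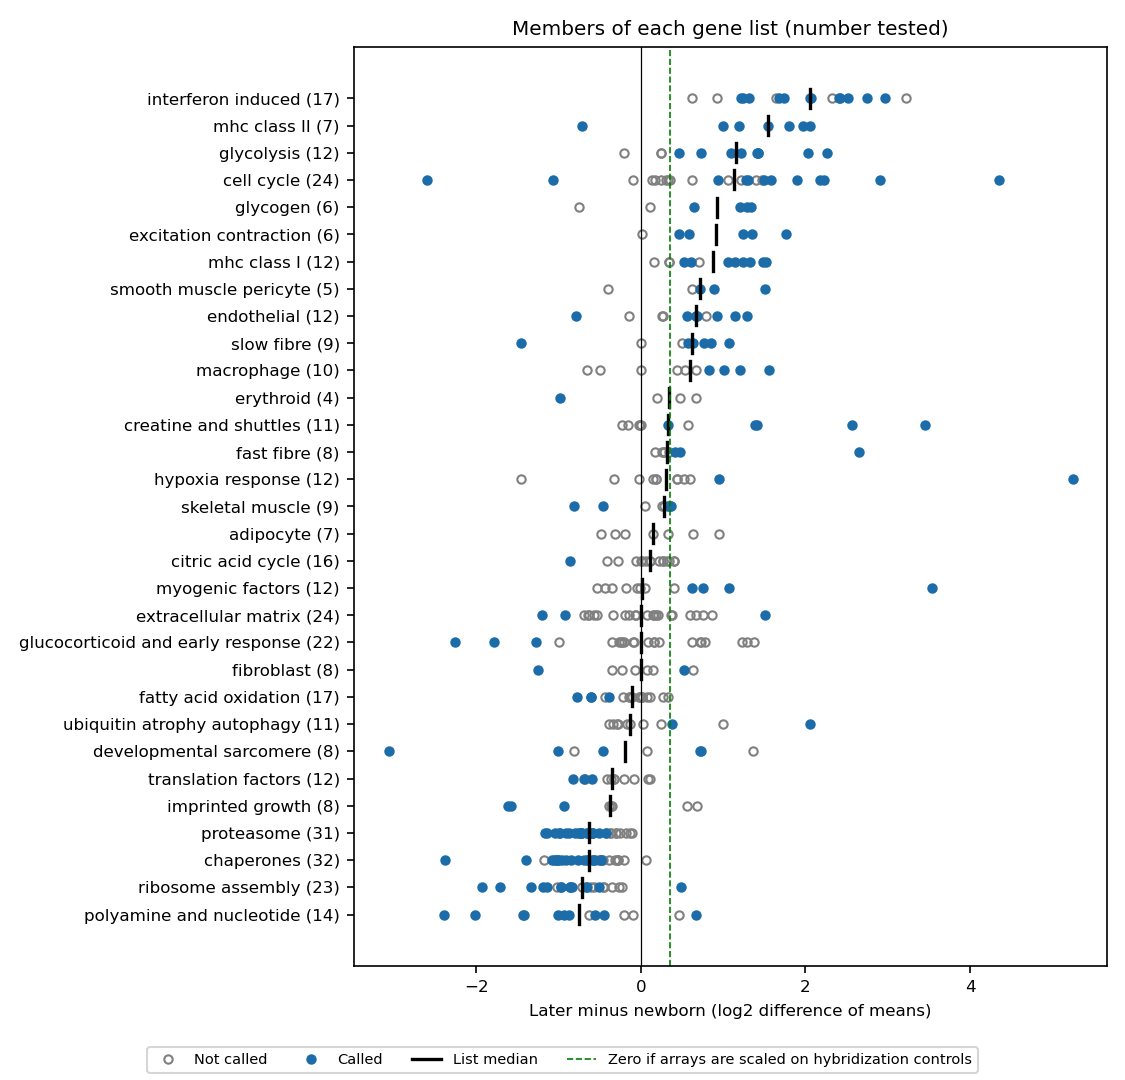
Each row is a gene list with the number of genes tested, and each point a gene at its log2 difference of later minus newborn, filled where called, with the list's median as a bar; the smallest lists are not drawn. Interferon, MHC class II and glycolysis genes have the medians farthest to the right, ribosome assembly and polyamine genes farthest to the left, and the dashed green line marks where 0 would lie with arrays scaled on hybridization controls.

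Where a list had 0 calls on one side, at most 1 member had an unadjusted limma p under 0.05 on that side, except for the early response genes, with 5 on the higher side.

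Immune genes held the 2 largest list medians. In bulk tissue a change in the number of cells of a type and a change in RNA per cell cannot be told apart. MHC class II molecules show antigens to helper T cells, and of 7 tested genes 6 were called higher and 1 lower, with a median of 1.54. SLA-DRB1 ran from 997.3 to 1938 in later muscle (median 1604), against 316.6, 384.6 and 435 in newborn muscle (2.05 ± 0.19, limma adjusted p = 2.76e-05). SLA-DQA1 ran from 1168 to 1981, against 352.3, 537.2 and 622.6 (1.54 ± 0.19, adjusted p = 0.000154). SLA-DRA (1.98 ± 0.37) and SLA-DQB1 (1.80 ± 0.29) were separated as well. The 1 lower member was SLA-DMA (-0.71 ± 0.17), whose probe sets were called in opposite directions. SLA genes resemble each other, and their probe sets may read more than 1 of them. With the poly-A covariate the list held 4 calls.

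MHC class I genes, which show peptides from inside the cell, had 8 of 12 called higher and 0 lower, with a median of 0.88. SLA-2 ran from 6533 to 13711 in later muscle (median 8379), against 3524, 3472 and 4374 in newborn muscle (1.24 ± 0.22, limma adjusted p = 0.00128). PSMB8, a subunit of the immunoproteasome, ran from 391.1 to 1103, against 151.4, 323.5 and 259.1 (1.49 ± 0.32, adjusted p = 0.00452). Its direction was opposite to that of the standard proteasome genes above. B2M, the light chain shared by class I molecules, was at 0.61 ± 0.13 on its brightest probe set and had another called lower. SLA-8 was at 1.06 ± 0.26. Without newborn replicate 2 the list had 5 calls, on the hybridization control scale 4 and with the poly-A covariate 3.

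All 17 interferon-induced genes were higher, and 12 were called, with a median of 2.05, the largest of the lists tested. The later arrays were not uniform: the list's mean, centred on the log2 scale, ran from -0.90 to 2.05 in them, against -1.97 to -1.11 in newborn arrays. With 1 later age alone against newborn muscle, the list held 3 calls at day 7, 17 at day 14 and 8 at day 21. IFIT1, an antiviral RNA-binding protein, ran from 223.4 to 3625 in later muscle (median 739.3), against 115.9, 75.6 and 158.3 in newborn muscle (2.97 ± 0.61, limma adjusted p = 0.0036). IFI44L ran from 441.3 to 3204, against 150.4, 285.5 and 197.4 (2.41 ± 0.47, adjusted p = 0.00278). The later arrays spread widely in both genes and still lay above all newborn ones. OAS1, which senses double-stranded RNA (2.42 ± 0.52), had its lowest later array level with the highest newborn one (315.1 against 315.2), and IRF1, a transcription factor of the response (1.22 ± 0.23), was separated. In 5 of the 12 called genes the newborn mean was under the filter limit. The list held 7 calls without newborn replicate 1 and 3 with the poly-A covariate, where IFIT1 was at 2.31 (adjusted p = 0.0901).

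The chemokines CCL5 and CCL4 draw white blood cells into tissue. CCL5 ran from 85.8 to 408.2 in later muscle (median 171.1), against 27.2, 16.5 and 34.7 in newborn muscle (1.97 with the offset and 2.88 without it). Its newborn mean was under the filter limit, so it passed the filter only through the later arrays. CCL4 ran from 322.6 to 626.2, against 141.4, 133.1 and 125.3 (1.54 ± 0.20, limma adjusted p = 0.000187). Both were separated, and their gaps of 1.31 and 1.19 on the log2 scale became 0.95 and 0.59 on the hybridization control scale, and that of CCL5 0.84 with the offset. The 12 lymphocyte markers summed to 488 to 1002 in later muscle and 340 to 531 in newborn muscle. Of the 12, 10 were under the filter limit and were not tested. Medians were higher in later muscle in 9 of the 12, as with IL7R at 81.5 in later muscle against 10.4 in newborn muscle and LCK at 59.6 against 7.8, less so in CD3E at 43.3 against 33.2, and lower in CD3G, JCHAIN and CD79B, the last at 12.2 against 76.4. Of 10 macrophage markers 4 were called higher, namely LAPTM5 (1.56 ± 0.25), CTSS (1.20 ± 0.29), C1QC (1.01 ± 0.32) and FCER1G (0.83 ± 0.28), while CD163 (-0.50 ± 0.35) and MRC1 (-0.66 ± 0.28), the scavenger and mannose receptors, were not called. The summed signal of the 10 ran from 3400 to 8841 in later muscle and from 2667 to 3886 in newborn muscle. Only LAPTM5 was called without newborn replicate 1. C1QC and FCER1G were not called without newborn replicate 2 (1.13 and 0.83) either, and lost the call without 4 of the later arrays (0.95 to 1.0) and 6 of them (0.76 to 0.87). The part of such cells in the immune gene results was not tested.

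Vessel genes rose in part. Of 12 endothelial markers 7 were called higher and 1 lower, and the median was 0.67. On the hybridization control scale there were 3 calls and the median was 0.31. CDH5, the cadherin of endothelial junctions, ran from 1262 to 2541 in later muscle (median 2031), against 1009, 784.1 and 688.3 in newborn muscle (1.29 ± 0.18, limma adjusted p = 0.000328). CLDN5, of the tight junctions, ran from 445.3 to 830.9, against 282.8, 341.4 and 293.8 (1.15 ± 0.20, adjusted p = 0.00134). ENG, a co-receptor of TGF-beta, was the lower one (-0.79 ± 0.18). With the poly-A covariate 5 of the list were called. RGS5, a regulator of G protein signals that marks pericytes, the cells wrapped round capillaries, ran from 4101 to 6404, against 1531, 2102 and 1918 (1.51 ± 0.15, adjusted p = 3.06e-05). ANGPT1, the ligand of the endothelial receptor TEK, ran from 196.6 to 446.8, against 48.8, 66.3 and 97.8 (1.74 with the offset and 2.13 without it). TEK was separated at 0.93 ± 0.22. ANGPT1 was separated too, but had a newborn mean under the filter limit and passed the filter only through the later arrays. MDK, midkine, a heparin-binding growth factor, ran from 655.2 to 1256, against 131.2, 138.9 and 325.2 (2.27 ± 0.26, adjusted p = 7.87e-05).

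Cell cycle genes divided. Of 24 tested, 10 were called higher and 2 lower, with a median of 1.14 and wide overlap between ages. CCNB1, the cyclin that starts mitosis, ran from 115.9 to 785.2 in later muscle (median 359.9), against 5.0, 8.1 and 149.1 in newborn muscle (2.71 with the offset and 4.35 without it). Newborn replicate 3 fell inside the later range, while the other two were near the dim end. NUSAP1, a spindle protein, ran from 323.7 to 865.1, against 95.2, 124.5 and 220.3 (1.90 ± 0.30, adjusted p = 0.000706), and CKS2, a partner of cyclin-dependent kinases, was at 1.5 ± 0.27. CDKN3, a phosphatase that acts on such kinases, went the other way, with 218.8 to 741 against 4226, 3697 and 1295 (-2.59 ± 0.38, adjusted p = 0.000404), as did the inhibitor CDKN1A (-1.07 ± 0.32). The list held 7 calls without newborn replicate 2 and 3 with the poly-A covariate, and in 3 of the 10 higher genes the newborn mean was under the filter limit.

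Several genes with wide gaps on the lower side were in no list. DDAH1, which breaks down methylated arginines that inhibit nitric oxide synthesis, had the widest gap of them, with 336.4 to 869.6 in later muscle (median 678) against 2853, 4327 and 1958 in newborn muscle (-2.15 ± 0.27, limma adjusted p = 0.000161). MYO5B, an unconventional myosin that carries vesicles, ran from 73.2 to 189.2, against 766.9, 644.3 and 425.9 (-2.23 ± 0.28, adjusted p = 0.000161). RBM3, an RNA-binding protein known to be induced by mild cold, ran from 1115 to 2898, against 6699, 6101 and 7818 (-1.66 ± 0.25, adjusted p = 0.000424). In DDAH1 and MYO5B replicate 3 was the lowest newborn sample, whereas in RBM3 it was the highest. Among the others, VAMP2, synaptobrevin (-1.22 ± 0.17), and CLTC, the clathrin heavy chain (-1.34 ± 0.15), act in vesicle traffic. LIN37, of the complex that silences cell cycle genes in resting cells, was at -1.29 ± 0.14, CCNB1IP1, a ubiquitin ligase named for cyclin B1, at -1.35 ± 0.17, and the unnamed locus LOC100153598 at -1.73 ± 0.30. On the higher side DEPDC7 had 348.5 to 502.3 against 163.1, 95.7 and 131 (1.76 ± 0.18, adjusted p = 3.45e-05). The last gene inside the ranking of 15 had a gap of 1.01 on the higher side (ANGPT1) and -0.77 on the lower (MRTO4), and the first outside had 0.98 (OPTN) and -0.73 (HYOU1).

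Of 5 markers of smooth muscle and pericytes 3 were called higher, RGS5 and ACTA2 above and MCAM (0.89 ± 0.23), which lost its call without newborn replicate 1 (0.79) or 2 (0.74). Other groups gave few calls, where 11.6% of all genes were called higher and 13.1% lower. The lower calls among the early response and matrix genes are near or under that share. Early response and glucocorticoid genes had 0 of 22 called higher and 3 lower, namely TNFRSF12A, the TWEAK receptor (-2.26 ± 0.56), RCAN1, an inhibitor of calcineurin (-1.78 ± 0.45), and CEBPD (-1.27 ± 0.38). In all 3 newborn replicate 3 overlapped with later muscle, and all 3 lost the call without newborn replicate 1 (-1.67, -1.12 and -1.07), CEBPD also without replicate 2 (-1.13). Hypoxia genes had 2 of 12 called, ANKRD37 and the glucose transporter SLC2A3 (0.95 ± 0.29). ANKRD37 had a newborn mean under the filter limit and passed the filter only through the later arrays. SLC2A3 lost its call without any 1 newborn replicate (0.88 to 0.99). CA9, a carbonic anhydrase, was at -1.46 and was not called. It had a later mean under the filter limit and passed the filter only through the newborn arrays. Matrix genes had 1 of 24 higher, COL15A1, a basement membrane collagen (1.5 ± 0.24), and 2 lower, COL6A2 (-1.21 ± 0.27) and TIMP1 (-0.91 ± 0.25), which both lost the call without newborn replicate 2 (-0.85 and -0.60). limma called 0 of 7 adipocyte markers, of which 1, PPARG (a difference of 0.95), had an unadjusted p under 0.05. PPARG had a newborn mean under the filter limit and passed the filter only through the later arrays. limma also called 0 of 2 Schwann cell markers, of which S100B (0.48 ± 0.22) had such a p, and 0 of 1 neutrophil marker. The other Schwann marker, MBP, was at -0.83 ± 0.46 on its brightest probe set, whereas the mean of its probe sets was called higher (1.81, adjusted p = 0.00573). Among 8 fibroblast markers PDGFRB was higher (0.52 ± 0.13) and DPT lower (-1.25 ± 0.33), and among 11 genes of ubiquitin and atrophy UBB (0.38 ± 0.09) and UBD were higher. UBD had a newborn mean under the filter limit and passed the filter only through the later arrays. The call was lost without newborn replicate 1 on PDGFRB (0.40) and without replicate 2 on DPT (-1.13) and UBB (0.30). HBB, the beta chain of haemoglobin, was the 1 erythroid gene called, with 556.3 to 828.7 in later muscle against 2071, 1175 and 1036 in newborn muscle (-0.99 ± 0.19, adjusted p = 0.00248).

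The 385 higher genes had a median difference from newborn muscle of 0.94 at day 7, 0.98 at day 14 and 0.99 at day 21, and the 477 lower ones -0.70, -0.78 and -0.75. All 3 ages share the newborn arrays, and the choice of these genes requires every later array to lie on one side and counts spread between the later ages as error, so the likeness of these medians is partly set by the choice. A limma F test over days 7, 14 and 21, which uses no newborn value in its contrast, passed in 0 of 5296 genes, with 317 (5.99%) at an unadjusted p under 0.05. With 3 arrays per age smaller changes among the later ages may have been missed. In simulated data, with the change at day 21 alone, the same test recovered 37 of 100 changes of 2-fold and 83 of 100 of 4-fold. Those data had independent normal noise with 1 spread per probe set at all ages, and effects shared across an array were not simulated.

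**Figure D5:**
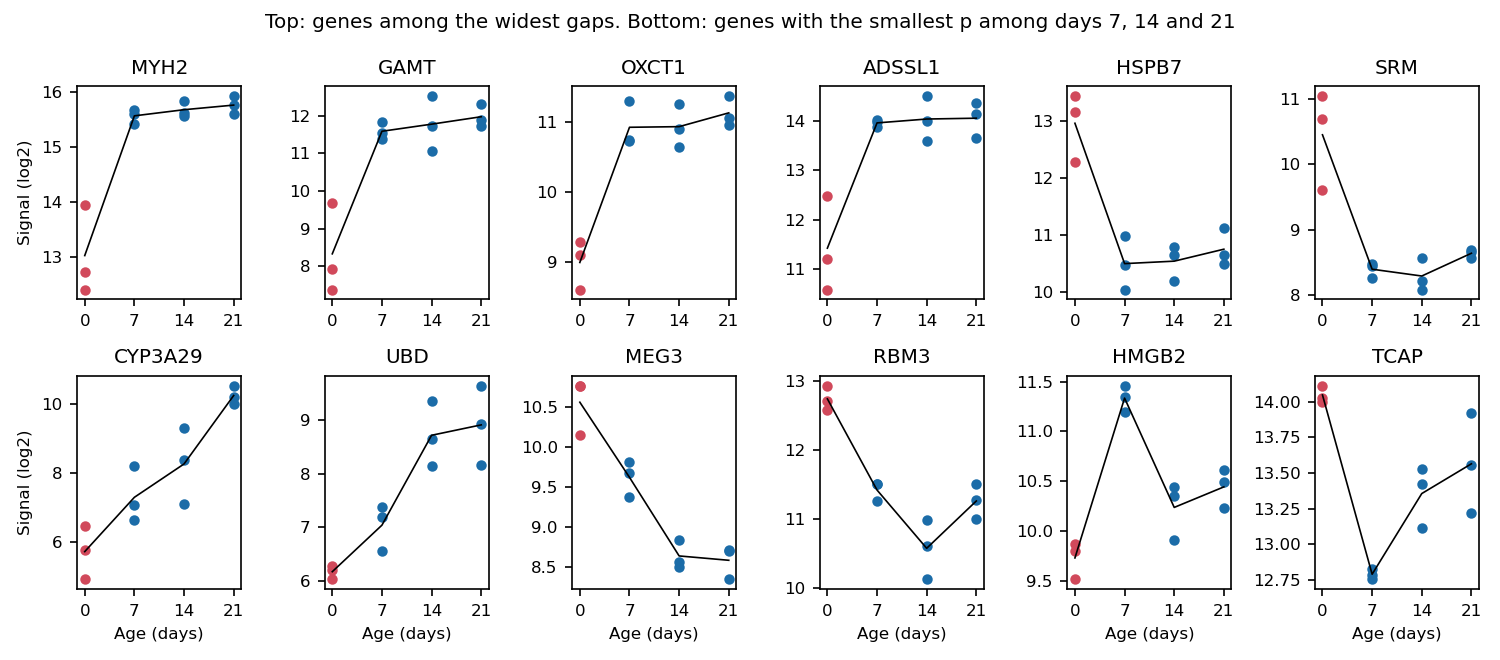
Log2 signal of single arrays against age in days, red at day 0 and blue at later ages, with a line through the means of 3 arrays. The top genes step between days 0 and 7, and the bottom genes, which have the smallest p among days 7, 14 and 21, had means that differ between those ages, with no F test passing after adjustment.

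The genes with the smallest F test p among those separated did not pass the adjustment over all probe sets. CYP3A29, a pig cytochrome P450, stood at 1.58, 2.55 and 4.53 above newborn muscle at days 7, 14 and 21 (limma F test adjusted p = 0.649), and the ubiquitin-like UBD at 0.87, 2.55 and 2.74 (adjusted p = 0.662). MEG3 stood at -0.94, -1.92 and -1.97 (limma F test adjusted p = 0.662) and RBM3 at -1.32, -2.17 and -1.48 (adjusted p = 0.731). HMGB2, a chromatin protein of dividing cells, was farthest from newborn muscle at day 7, at 1.6, 0.51 and 0.71 (limma F test adjusted p = 0.389), as was TCAP, a titin cap protein, at -1.26, -0.69 and -0.48 (adjusted p = 0.706). The calls of later against newborn muscle on HMGB2, CYP3A29 and TCAP were lost without newborn replicate 2 (0.83, 2.48 and -0.78), and that on HMGB2 also without replicate 1 (1.01) or 3 (0.98).

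Among all probe sets tested, 1 of 14399 (0.00694%) passed the F test, and 767 (5.33%) had an unadjusted p under 0.05. It carries no gene symbol in the annotation used here and was singled out for this count after its values were seen. Its signals were 3732, 5685 and 6929 at day 0, 3292, 1399 and 1261 at day 7, 219, 168.1 and 221.2 at day 14, and 99.1, 68.5 and 165.7 at day 21. The decline ran through every age without overlap between neighbouring ages (F test limma adjusted p = 0.00215). Its log2 difference from newborn muscle was -1.55 at day 7, -4.71 at day 14 and -5.67 at day 21.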

How the data were processed

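The authors deposited 1 intensity per probe set and array. The submitters' processing notes name MAS5 without a version. After the highest and lowest 2% were trimmed, the mean was 500.1 on every array (spread 0.00514%), so log2 signals were used without normalizing again. Of 24123 probe sets, 124 controls and the lowest 40% by mean log2 signal (under a signal of 90.3) were left out, which left 14399. Symbols came from GEO's platform annotation (10099 probe sets with 1 symbol, 198 with several, 13826 with none), of which 9989 were matched by Entrez identifier and 0 changed. Where several tested probe sets share a symbol the brightest stands for the gene, which gave 5296 genes.

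limma 3.58.1 (R 4.3.3) fitted 1 mean for the 9 later arrays and 1 for the 3 newborn arrays, moderated with eBayes and a mean-variance trend. Spread between the later ages counts as error there. The fit takes 1 spread per probe set for both groups, which rests mostly on the 9 later arrays. Newborn arrays spread more in some genes, as in ADSSL1 (SD 0.96 against 0.30 in later arrays), where the SE can understate it. They spread less in others, as in CCL4 (0.09 against 0.31). The F test over days 7, 14 and 21 came from a fit with 1 mean per age. Array measures were compared by exact permutation. The precision is limited by the number of arrays. Simulated data held 14399 probe sets with independent normal noise and 1 spread per probe set at all ages. On them later against newborn recovered 58 of 100 changes of 2-fold and 94 of 100 of 4-fold, with 9 unchanged ones called.

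Named genes are the 15 with the widest gap on each side, up to 4 members of each of 34 lists in order of p, the 6 with the smallest p among later ages, and 7 muscle genes always. Others are named to complete a count of 5 or fewer, as markers, or to set beside a named gene or list, after their values were seen. Examples of the last kind are FBP2, GYS1, MDH1, MYF5 and MYL1. The comparison, its lists and its alternatives were chosen with earlier results of these data known. Alternatives were other filters (none, 60%), normalizations (quantile, median centring, hybridization controls), an offset, no trend, array weights, a replicate block, the poly-A ratio as a covariate, 1 mean per age, each later age alone, averaging the probe sets of each gene, and leaving out each array. Figures were drawn with matplotlib 3.10.9, numpy 2.4.6 and pandas 2.3.3.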

Additional observations from a re-analysis of the deposited data

Results flagged for a closer look

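Among the 9 later arrays, 1 array lay apart from the others by Dixon's test in 9 of 150 named genes and in 1 of 34 lists, where chance alone gives about 1 in 20. Day 21 replicate 2 accounts for 5 of the 10. In it CDH5 was lowest at 1262.4 (next 1868.9) and JCHAIN, the joining chain of antibodies, at 39.1 (next 89), COL6A2 was highest at 1878.6 (next 1232.4) and DES at 19653.9 (next 16903.3), and the mean of the endothelial list was lowest at -0.253 (next 0.055). ANKRD1 stood at 43.5 in day 14 replicate 2 (next 592.5), CASQ2 at 476 in day 21 replicate 1 (next 1014.2) and LIN37 at 578.7 in day 21 replicate 3 (next 679.4). In day 7 replicate 3 CCL4 was highest at 626.2 (next 443.4) and RCAN1 at 4413.8 (next 1994.1). CDH5, CCL4 and LIN37 stayed called without any single array.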

How the results depend on the processing

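Of 14399 probe sets 2957 were called, 1631 higher and 1326 lower in later muscle. The counts were 4466, 635 and 3831 with hybridization control scaling (separated 342 higher and 2790 lower, and 2 called among the later ages), 1695, 968 and 727 with array weights, and 1203, 696 and 507 with the poly-A covariate. Median centring gave 1201 higher and 1895 lower. With 1 later age alone against newborn muscle the counts were 1353, 829 and 524 at day 7 (separated 2140 and 1969), 1777, 971 and 806 at day 14 (2234 and 2008), and 1657, 952 and 705 at day 21 (2209 and 1975), where fewer later arrays enter the difference and have to be separated. Leaving out 1 array gave 1899 to 2947 called, 1096 to 1670 higher and 803 to 1277 lower, 1111 to 1835 separated higher and 1066 to 1702 lower (1071 and 1029 with all), and 1 to 3 called among the later ages. The lowest counts of calls were without newborn replicate 2, and the highest counts of separated ones without newborn replicate 3. The cause of these differences was not tested.

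The deviations of samples with the same replicate number were weakly correlated at most (-0.198 to 0.112 over 18 pairs). Few arrays per age enter this check, so it cannot decide whether the numbers pair the samples. Whether samples with the same number share a litter or a processing set was not tested. With the replicate number as a block 2737 probe sets were called, 1510 higher and 1227 lower.

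Of 4011 values of named genes under alternatives 3696 kept their direction and side of the threshold, 275 lost and 23 gained the call, and 17 changed direction, none of them called as reported except CKM. These were CKM (-0.0175), FABP4 (-0.0167), SLC25A37 (-0.1477), TNNC2 (-0.007) and UBE2B (-0.1017) with hybridization control scaling, IDH3A (-0.0443) and SLC25A37 (-0.0225) with the covariate, AHSP (-0.641), ALAS2 (-0.0074) and IGF2 (0.0655) at day 7 alone, S100A9 (0.1856) at day 14 alone, and MBP (1.8079, a call with adjusted p = 0.00573) and SLC25A37 (-0.1863) with the mean of probe sets. With single arrays left out AHSP ran from -0.0556 to 0.8595, MBP from -1.3597 to 0.0754 and S100A9 from -1.0004 to 0.3668. The 3' to 5' ratios of actin, GAPDH and EF1A, which had not passed, ran from -0.2928 to 0.2312, -0.1078 to 0.03867 and -0.052 to 0.0975. Low signal limits ANKRD37, SMAGP, TMEM132A, C4H1orf54, CCL5, MSTN and ANGPT1, whose newborn means lie under 90.3.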

Other observations

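Of the 862 called and separated genes, 245 had several tested probe sets, and in 203 of these all probe sets lay on the same side. In 6 genes probe sets were called in opposite directions, namely B2M, SLA-DMA, VAPA, C17H20orf27, PNRC2 and BUD23. Among the named genes, EIF4G1, PEG10, NHP2, MCAM and ANKRD1 lost the call when the probe sets of each gene were averaged.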
